A study of Solanum tuberosum with 9 samples.

Results

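The heat shock proteins and heat stress transcription factors of potato leaves were followed in bulk samples that differ in phytotoxicity. Genes were taken when the product name in the deposited tables contained “heat shock”, “heat stress transcription factor” or “ClpB”, and 86 of the 24169 genes in the tables met this rule. These were 31 small heat shock proteins (small HSPs), 19 HSP70 genes, 7 HSP90 genes including the activator of the HSP90 ATPase, 4 ClpB genes, and 25 factors including 2 HSF-binding proteins. The plants belonged to the diploid population 15-1, the progeny of the Solanum hybrid DG 88–89 and the wild species S. chacoense. Bulk F’ (growth stimulation, hormesis in the labels), bulk B’ (low phytotoxicity) and bulk A’ (high phytotoxicity) were all made from individuals with a high glycoalkaloid content. Each bulk mixed leaves of 3 individuals, was sequenced as 3 libraries, and came from untreated greenhouse plants at full anthesis. Phytotoxicity was scored by the study on mustard seedlings that were grown in aqueous leaf extracts.

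Heat shock proteins are chaperones that keep other proteins folded. Small HSPs hold unfolding proteins until HSP70, with its DnaJ partners, refolds them, while HSP90 matures signalling proteins and ClpB pulls apart aggregates together with HSP70. Their heat-induced genes are switched on by heat stress transcription factors (HSFs), of which class A members activate and many class B members repress or assist, but several HSP70 and HSP90 genes, called cognate, are active in unstressed leaves. Separate families work in the cytosol, the chloroplast, the mitochondrion and the endoplasmic reticulum (ER).

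Each library held between 21199110 and 22517178 gene counts. Levels are given as normalized counts, which are raw counts scaled by TMM factors, and they are not divided by transcript length. A positive Log2FC means a higher level in the bulk named first. DEGs had an FDR under 0.05 in edgeR’s quasi-likelihood test. How the 3 libraries made from a bulk arose is not stated. The FDR values therefore measure the spread between libraries, which may be technical, and a difference between bulks cannot be told apart from a difference between the individuals chosen. With 3 libraries on either side, no exact permutation test of a single gene can reach a two-sided p-value under 0.1. The comparisons share libraries, since A’ is the control of both B’ and F’, so that their values are given side by side. Genes that define green leaf tissue, the 39 genes for the small subunit of ribulose bisphosphate carboxylase and for chlorophyll a-b binding proteins, summed to 2102000 to 2534000 normalized counts in F’, 1577000 to 1887000 in B’ and 2834000 to 3652000 in A’. Of these marker genes, 35 were lower and none was higher in B’ vs A’, where 16.5% of all genes were lower. In F’ vs A’, 32 were lower and none was higher, beside 18.2% of all genes lower. In F’ vs B’, 11 were higher and 8 were lower, beside 13.7% and 16.3% of all genes. The part of these marker differences in the results was not tested. In bulk tissue, fewer cells of a type and less RNA per cell cannot be told apart.

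In B’ vs A’, 72 of the 86 heat shock genes had enough counts to be tested, and 31 were DEGs, 20 higher and 11 lower in B’. Among all genes tested, 32.9% were DEGs, 16.4% higher and 16.5% lower. In F’ vs A’, 73 genes were tested and 40 were DEGs, 26 higher and 14 lower in F’, beside 35.6% of all genes, 17.5% higher and 18.2% lower. In F’ vs B’, fitted over the genes listed for both other comparisons, 74 genes were tested and 39 were DEGs, 24 higher and 15 lower in F’, beside 30.0% of all genes, 13.7% higher and 16.3% lower. The median Log2FC of the heat shock genes was 0.09 in B’ vs A’, 0.18 in F’ vs A’ and 0.09 in F’ vs B’, against medians between −0.00 and 0.03 over all genes tested. The study’s cutoff of a Log2FC of 2 or more in size was passed by 2 heat shock genes in B’ vs A’, where 3.41% of all genes passed it. It was passed by 2 in F’ vs A’ (3.56% of all genes) and by 3 in F’ vs B’ (3.48% of all genes). These counts past the cutoff are close to the shares of all genes. The DEGs made up 43.1%, 54.8% and 52.7% of the tested heat shock genes in B’ vs A’, F’ vs A’ and F’ vs B’. Among all genes these shares were 32.9%, 35.6% and 30.0%.

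**Figure D1:**
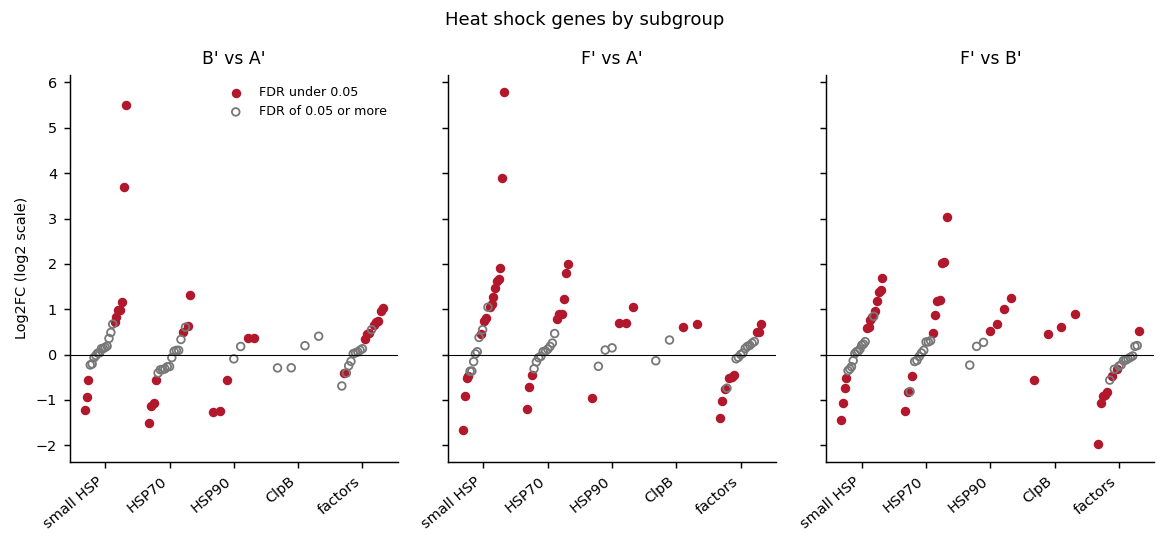
Log2FC (vertical axis, log2 scale) of every tested heat shock gene in B’ vs A’, F’ vs A’ and F’ vs B’, ordered by value within each subgroup. Red points are DEGs with an FDR under 0.05 and open points are not. The 2 small HSP genes far above the rest in B’ vs A’ and F’ vs A’ are LOC102584503 and LOC102588416.

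Small HSPs gave the largest differences in B’ vs A’ and in F’ vs A’. The chloroplastic small HSP gene LOC102584503 (chromosome 3, contig NW_006239018.1, bases 181156 to 182298) had 92.5, 88.4 and 88.9 normalized counts in the F’ libraries, 69.4, 75.5 and 75.0 in the B’ libraries, and 0, 2.18 and 2.30 in the A’ libraries. The gene was thus read at a steady low level in F’ and B’ and was at the floor, at most 3 counts per library, in A’. Set against 3 counts per library, F’ was at least 26.4-fold higher and B’ at least 21.5-fold higher than A’. The fitted Log2FC was 5.79 ± 0.43 (SE) in F’ vs A’ (FDR of 2.37e-07) and 5.49 ± 0.45 in B’ vs A’ (FDR of 4.84e-06), both of which depend on the prior count of the model. It was tested through its counts in F’ and B’ alone. In F’ vs B’ the difference was 0.29 ± 0.17 (FDR of 0.255), although the F’ libraries all lay above the B’ libraries.

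LOC102588416, a 17.4 kDa class I small HSP of the cytosol (chromosome 9), had a similar order of levels. It had 254, 267 and 294 normalized counts in F’, 188, 238 and 276 in B’, and 17.6, 16.3 and 20.7 in A’. The F’ and B’ libraries overlapped, and both stood far above A’. Its level was 15.0-fold higher in F’ than in A’ (Log2FC of 3.90 ± 0.19, FDR of 4.37e-09) and 12.9-fold higher in B’ than in A’ (FDR of 6.31e-07), and F’ vs B’ gave an FDR of 0.365. Of the other organellar small HSPs, which fall outside the rule for named genes and are given to complete the group, the 15.7 kDa peroxisomal LOC102594103 had 438 to 512 normalized counts in F’, 372 to 475 in B’ and 175 to 259 in A’. It rose in F’ vs A’ (Log2FC of 1.12 ± 0.15) and in B’ vs A’ (0.98 ± 0.17). The chloroplastic LOC102591853 rose in F’ vs A’ (1.06 ± 0.26) and in B’ vs A’ (0.98 ± 0.27), the last call being lost without library 1 or 3 of A’ (FDR of 0.0645 and 0.0731). The more deeply read chloroplastic LOC102598867 rose in F’ vs A’ (0.75 ± 0.13) and in F’ vs B’ (0.58 ± 0.14), while B’ vs A’ gave an FDR of 0.392. The mitochondrial LOC102578969 and LOC102599191 had at most 11.6 normalized counts in any library and were not tested.

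**Figure D2:**
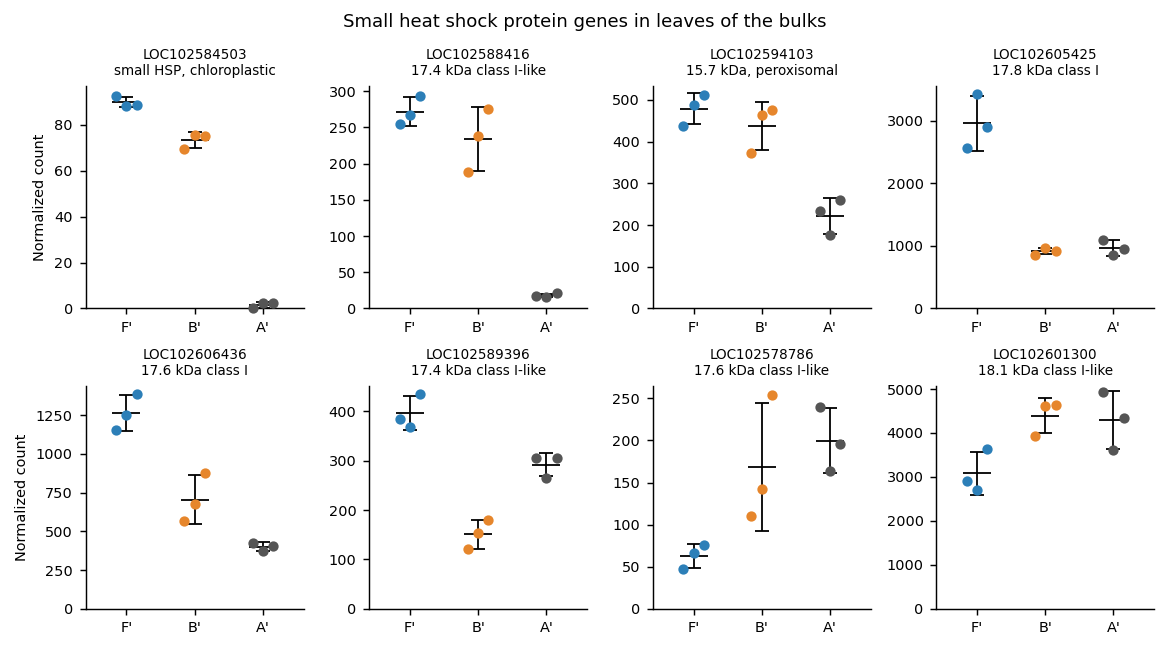
Normalized counts (vertical axes, starting at 0) of 8 small HSP genes in the 3 libraries of F’, B’ and A’. Points are libraries and bars are the mean ± SD. LOC102584503 had 88.4 to 92.5 normalized counts in F’, 69.4 to 75.5 in B’ and at most 2.30 in A’, while LOC102605425 was highest in F’ and had overlapping levels in B’ and A’.

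Class I small HSP genes lie side by side in the genome. All 4 neighbours on chromosome 9 rose in F’ vs A’, while 3 rose and 1 fell in B’ vs A’, and on chromosome 6 the neighbours included 3 that rose and 1 that fell in F’ vs A’. Of all genes tested, 17.5% were higher and 18.2% lower in F’ vs A’, and 16.4% and 16.5% in B’ vs A’. Some of these calls were lost when 1 library was left out, as given below. On chromosome 9 (contig NW_006239255.1, bases 48934 to 97144), LOC102588416 is the first of 4 class I genes in the same orientation. The next, LOC102588746, rose in F’ vs A’ (Log2FC of 1.26 ± 0.19) and in B’ vs A’ (1.17 ± 0.18), with 134 to 177 normalized counts in F’, 143 to 147 in B’ and 58.6 to 77.3 in A’. LOC102589078 had 181 to 209 normalized counts in F’, 68.5 to 101 in B’ and 42.5 to 58.6 in A’, and none of these ranges overlap. It rose by 1.92 ± 0.18 in F’ vs A’ and by 0.72 ± 0.23 in B’ vs A’, although the second call was lost without library 2 or 3 of A’ or library 2 of B’ (FDR of 0.114, 0.0754 and 0.139). The last gene of the stretch, LOC102589396, went the other way in B’. It had 384, 369 and 436 normalized counts in F’, 120, 154 and 179 in B’, and 306, 265 and 305 in A’. All B’ libraries lay under all A’ libraries, which in turn lay under those of F’. Its Log2FC was −0.94 ± 0.17 in B’ vs A’ (FDR of 0.00116), 1.38 ± 0.16 in F’ vs B’ (FDR of 0.000139) and 0.46 ± 0.13 in F’ vs A’ (FDR of 0.0118). The F’ vs A’ call was lost without library 2 of A’ or library 3 of F’ (FDR of 0.0621 and 0.0655).

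The class I genes on chromosome 6 (contig NW_006239053.1, bases 660041 to 675430) were mostly set apart by F’. The first, the 17.8 kDa gene LOC102605425, had 2562, 3430 and 2893 normalized counts in F’, 861, 959 and 924 in B’, and 1098, 850 and 945 in A’. Its level was 3.10-fold higher in F’ than in A’ (Log2FC of 1.63 ± 0.14, FDR of 8.91e-07) and 3.22-fold higher in F’ than in B’ (FDR of 1.07e-05), and B’ overlapped A’ (FDR of 0.712). LOC102606436, the 17.6 kDa gene at the other end, had 1155 to 1388 normalized counts in F’, 565 to 874 in B’ and 375 to 428 in A’. It rose by 1.67 ± 0.12 in F’ vs A’, by 0.83 ± 0.16 in F’ vs B’ and by 0.82 ± 0.16 in B’ vs A’. The second gene, LOC102605762, rose by 1.46 ± 0.16 in F’ vs A’ and by 0.96 ± 0.22 in F’ vs B’. Between them, LOC102578786 fell in F’, with 47.6, 66.0 and 75.3 normalized counts in F’, 110, 142 and 254 in B’, and 240, 163 and 196 in A’. Its Log2FC was −1.65 ± 0.20 in F’ vs A’ (FDR of 2.89e-05) and −1.43 ± 0.31 in F’ vs B’ (FDR of 0.00634), and library 3 of B’ stood above the other two of its bulk. LOC102578442 passed no test (FDR of 0.168 to 0.844). Except for LOC102605425, LOC102578786, LOC102588416 and LOC102589396, the genes of these stretches are outside the rule for named genes. Close class I copies may share reads, and the sources used here do not say how such reads were counted.

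**Figure D3:**
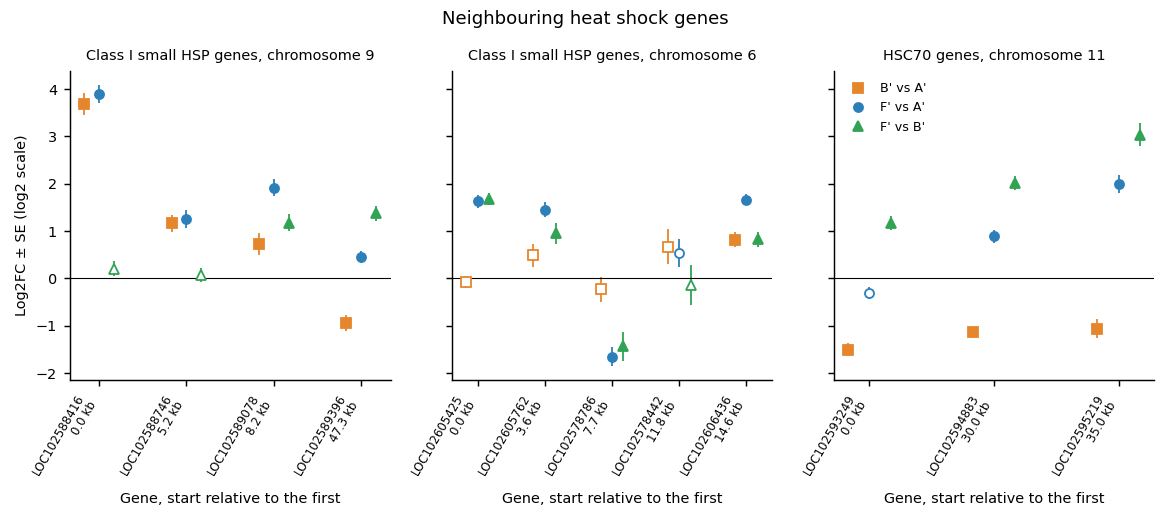
Log2FC ± SE (vertical axis, log2 scale) of neighbouring heat shock genes in B’ vs A’ (squares), F’ vs A’ (circles) and F’ vs B’ (triangles). Filled symbols are DEGs with an FDR under 0.05, and distances are in kb from the start of the first gene. LOC102589396 and the 3 HSC70 genes lie under 0 in B’ vs A’, and LOC102578786 lies under 0 in both comparisons of F’.

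Small HSPs that were lower in F’ or B’ also included the gene that drew the most reads. LOC102601300 (18.1 kDa class I, chromosome 9) had 2900, 2712 and 3639 normalized counts in F’, 3939, 4612 and 4625 in B’, and 4921, 3611 and 4349 in A’. F’ overlapped A’ in 1 library, and the Log2FC was −0.47 ± 0.15 in F’ vs A’ (FDR of 0.0235) and −0.52 ± 0.14 in F’ vs B’ (FDR of 0.0168). The first call was lost without library 1 or 3 of A’ or library 1 or 2 of F’ (FDR of 0.0515 to 0.0754), and the second without library 2 of B’ or library 1 of F’ (FDR of 0.0688 and 0.0684). LOC102606179, an 18.2 kDa class I gene, had 35.5, 47.9 and 29.9 normalized counts in F’ against 81.4, 81.1 and 71.6 in B’ and 90.2, 46.8 and 78.2 in A’. It fell by 1.06 ± 0.24 in F’ vs B’. Its Log2FC of −0.91 ± 0.29 in F’ vs A’ (FDR of 0.0225) did not hold without library 1 or 3 of A’ or of F’ (FDR of 0.0535 to 0.0921). The 17.4 kDa class III gene LOC102591190 had 8.33, 25.2 and 18.1 normalized counts in B’ against 37.5, 35.9 and 48.3 in A’, a Log2FC of −1.22 ± 0.37 (FDR of 0.0254) that was lost without any 1 of the A’ libraries or library 1 of B’ (FDR of 0.0513 to 0.105).

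Small HSPs of the other classes, outside the rule for named genes, differed less. The 22.7 kDa class IV gene LOC102601494 had 198, 237 and 219 normalized counts in F’, 113, 117 and 156 in B’, and 112, 127 and 139 in A’. F’ stood above both other bulks, and the gene rose by 0.80 ± 0.15 in F’ vs A’ and by 0.75 ± 0.17 in F’ vs B’. The cytosolic 17.3 kDa class II gene LOC102604529 had 351 to 448 normalized counts in F’, 201 to 287 in B’ and 300 to 414 in A’, and B’ lay under both. It rose by 0.61 ± 0.16 in F’ vs B’, a call lost without library 2 of F’ (FDR of 0.0592), and had −0.56 ± 0.17 in B’ vs A’, lost without library 1 or 3 of A’ or library 1 of B’ (FDR of 0.078 to 0.125). The last calls were LOC102604571 (class VI) with −0.51 ± 0.17 in F’ vs A’, LOC102599517 (14.7 kDa) with −0.73 ± 0.25 in F’ vs B’ and the rarely read class I gene LOC102598100 with 1.42 ± 0.48 in F’ vs B’. Each was lost when 1 of several libraries was left out. For LOC102604571 these were library 1 or 3 of A’ and library 1 or 2 of F’ (FDR of 0.0783 to 0.107), for LOC102599517 library 2 or 3 of B’ and library 1 or 2 of F’ (FDR of 0.0907 to 0.13), and for LOC102598100 any 1 of the libraries of B’ and F’ (FDR of 0.0505 to 0.149). LOC102598100 had at most 9 raw counts per library in B’ and was tested in F’ vs B’ through its counts in F’ alone. LOC102599517 was also lost with upper-quartile scaling (FDR of 0.0679), and LOC102598100 with DESeq2 (FDR of 0.0865) and without the filter on low counts (FDR of 0.0627).

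In all, 23 small HSPs were tested in B’ vs A’, of which 7 were higher and 3 were lower (median Log2FC of 0.16), and without library 3 of A’ these numbers were 5 and 1. Without library 1 of A’, 7 were higher and 1 was lower. In F’ vs A’, 24 were tested, 12 were higher and 4 were lower (median of 0.65), and only 1 was lower without library 1 or 3 of A’ or library 1 of F’, and 2 without library 2 of F’. In F’ vs B’, 25 were tested, 9 were higher and 4 were lower (median of 0.21), and 2 were lower without library 2 of B’ or library 1 of F’. Of all genes tested, 16.4% were higher and 16.5% lower in B’ vs A’, 17.5% and 18.2% in F’ vs A’, and 13.7% and 16.3% in F’ vs B’. The summed level of the small HSPs was 13090 to 14880 normalized counts in F’, 9941 to 12800 in B’ and 9269 to 11810 in A’, over the 29 genes listed in both comparisons. The F’ sums lay above those of B’ and A’, which overlapped, but the lowest F’ sum, 13090, was close to the highest B’ sum, 12800. LOC102605425 alone held 2562 to 3430 normalized counts in F’, 861 to 959 in B’ and 850 to 1098 in A’. The most-read LOC102601300 went the other way, with 2712 to 3639 in F’, 3939 to 4625 in B’ and 3611 to 4921 in A’. The order of the sums thus depends on single genes, and sums without them were not taken. Within B’, library 1 was the lowest for 20 of 22 small HSPs with a mean of at least 20 normalized counts, and library 3 was the highest for 16 of them. Without library 1 of B’, 9 small HSPs were higher and 1 was lower in B’ vs A’. The remaining small HSPs, such as the 15.4 kDa class V gene LOC102591787 with 1302 to 1825 normalized counts over all 9 libraries, passed no test or were read too rarely.

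HSP70 genes differed most on chromosome 11, where 3 cognate genes (HSC70) lie within 1 stretch (contig NW_006239029.1, bases 212713 to 250657). LOC102595219 had 2019, 2891 and 1744 normalized counts in F’, 313, 307 and 184 in B’, and 452, 656 and 573 in A’. All F’ libraries lay far above A’, and all B’ libraries lay under A’. Its level was 8.23-fold higher in F’ than in B’ (Log2FC of 3.04 ± 0.24, FDR of 1.32e-05) and 3.98-fold higher in F’ than in A’ (FDR of 1.9e-06), and it fell by 1.06 ± 0.20 on the log2 scale in B’ vs A’ (FDR of 0.00202). LOC102594883 showed the same order, with 1648 to 2329 normalized counts in F’, 432 to 517 in B’ and 1027 to 1049 in A’. Its Log2FC was 0.89 ± 0.14 in F’ vs A’, −1.14 ± 0.12 in B’ vs A’ and 2.02 ± 0.15 in F’ vs B’. These 2 annotations overlap on the same strand (bases 247674 to 250644), so that reads from one cannot be told apart from reads of the other there. The third, LOC102593249, does not overlap them and was read far more, with 30260, 35940 and 28130 normalized counts in F’, 15290, 14660 and 11540 in B’, and 40250, 41200 and 36710 in A’. It was 2.83-fold lower in B’ than in A’ (Log2FC of −1.50 ± 0.14, FDR of 1.02e-05) and 2.26-fold higher in F’ than in B’ (FDR of 0.000217), while F’ vs A’ gave −0.31 ± 0.13 (FDR of 0.0729).

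The HSP70 gene with the most reads, LOC102580808 (HSC70-2-like, chromosome 9), went the opposite way in B’. It had 129300, 150100 and 129300 normalized counts in F’, 199000, 194600 and 166000 in B’, and 118700, 128200 and 117000 in A’. It alone took 0.602% to 0.640% of all counts in the F’ libraries, 0.872% to 0.963% in the B’ libraries and 0.464% to 0.545% in the A’ libraries. All B’ libraries were the highest, with a Log2FC of 0.63 ± 0.13 in B’ vs A’ (FDR of 0.00247) and of −0.46 ± 0.13 in F’ vs B’ (FDR of 0.0192). The F’ vs B’ call was lost without library 1 or 2 of B’ or library 1 or 3 of F’ (FDR of 0.075 to 0.0946). Genes of nearly the same product name, outside the rule for named genes, rose in F’ vs A’. These were LOC102603624 (Log2FC of 0.78 ± 0.13) and LOC102588449 (1.22 ± 0.16). LOC102603624 also rose in B’ vs A’ (0.49 ± 0.13), though not without library 3 of A’ or library 1 or 2 of B’ (FDR of 0.0712, 0.0525 and 0.0625). Without LOC102580808, the other 18 HSP70 genes summed to 121400 to 153300 normalized counts in F’. The sums were 83040 to 108700 in B’ and 115100 to 126800 in A’. B’ was lowest in this sum, but the sum still holds LOC102593249, with 11540 to 15290 normalized counts in B’ and 36710 to 41200 in A’. LOC102603624, in the same sum, was higher in B’ than in A’ (33590 to 42990 against 27070 to 30100). The order of the sum therefore does not describe the other HSP70 genes one by one.

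A pair of single HSP70 genes marked F’ and B’ in turn. LOC102588418 (HSP70-5, a stress-induced cytosolic form in Arabidopsis) had 277, 441 and 299 normalized counts in F’, 93.5, 80.2 and 70.7 in B’, and 72.6, 131 and 90.9 in A’. The F’ libraries stood clear of the others, and B’ overlapped A’. It was 3.47-fold higher in F’ than in A’ (Log2FC of 1.79 ± 0.22, FDR of 2.48e-05) and 4.13-fold higher in F’ than in B’ (FDR of 5.5e-05). LOC102604222 (HSP70-17, an ER form in Arabidopsis) had 786, 890 and 634 normalized counts in F’, 1978, 1897 and 1569 in B’, and 638, 785 and 781 in A’. Here only B’ stood apart. It was 2.48-fold higher in B’ than in A’ (Log2FC of 1.31 ± 0.14, FDR of 2.69e-05) and 2.37-fold lower in F’ than in B’ (FDR of 0.000162), with an FDR of 0.698 in F’ vs A’. The stromal HSP70-like LOC102600309, of the chloroplast, had 285 to 312 normalized counts in F’, 454 to 580 in B’ and 451 to 538 in A’, and fell by 0.71 ± 0.12 in F’ vs A’ and by 0.82 ± 0.13 in F’ vs B’. The rarely read HSC70-like LOC102591294 had 18.1 to 27.1 normalized counts in F’ and 41.4 to 65.6 in A’, a Log2FC of −1.21 ± 0.30 that was lost without library 3 of A’ (FDR of 0.0507).

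The remaining called HSP70 genes are outside the rule for named genes. LOC102583475 (HSP70-8) had 191 to 259 normalized counts in F’, 82.8 to 106 in B’ and 96.0 to 148 in A’, and rose by 0.90 ± 0.18 in F’ vs A’ and by 1.20 ± 0.17 in F’ vs B’. The mitochondrial gene LOC102582209, whose product imports and folds proteins there, had 2843 to 3934 normalized counts in F’, 1969 to 2572 in B’ and 3018 to 3665 in A’. It fell by 0.57 ± 0.13 in B’ vs A’. Its Log2FC of 0.48 ± 0.16 in F’ vs B’ (FDR of 0.04) was lost without library 2 or 3 of B’ or any 1 of the F’ libraries (FDR of 0.0504 to 0.122). The second mitochondrial gene, LOC102606158, had −0.45 ± 0.13 in F’ vs A’ (FDR of 0.0162), lost without library 2 or 3 of A’ or library 1 or 3 of F’ (FDR of 0.0541 to 0.0767). The main stromal gene LOC102588246, with 23760 to 28230 normalized counts in F’, 20040 to 27140 in B’ and 26500 to 30810 in A’, passed no test.

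All 19 HSP70 genes were tested in each comparison. In B’ vs A’, 3 were higher and 4 were lower (median Log2FC of −0.26), a share of 36.8% that is near the 32.9% of all genes. In F’ vs A’, 6 were higher and 3 were lower (median of 0.12), and in F’ vs B’, 7 were higher and 3 were lower (median of 0.28). These shares were 47.4% in F’ vs A’ and 52.6% in F’ vs B’, beside 35.6% and 30.0% of all genes. Library 2 of F’ was the highest of its bulk for 16 of the 19 genes, and library 3 of B’ was the lowest of its bulk for 17 of them. Without library 2 of F’, 6 were higher and 4 were lower in F’ vs A’, and without library 3 of A’, 6 were higher and 1 was lower. Without library 3 of B’, 5 were higher and 4 were lower in B’ vs A’, and 6 were higher and 3 were lower in F’ vs B’.

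In F’ vs A’, 1 HSP90 cognate gene fell while both heat shock protein 83 genes rose, and in B’ vs A’ both cognate genes fell. The HSP90 gene with the most reads, LOC102600008 (heat shock cognate protein 80-like, chromosome 12), had 13160, 14370 and 14450 normalized counts in F’, 7352, 7663 and 5915 in B’, and 18940, 17480 and 14230 in A’. The B’ libraries lay under all the others, and F’ overlapped A’. It was 2.41-fold lower in B’ than in A’ (Log2FC of −1.27 ± 0.15, FDR of 5.8e-05) and 1.99-fold higher in F’ than in B’ (FDR of 0.000256). The cognate protein 80 gene LOC102604977 (chromosome 10) had 2710, 3607 and 2950 normalized counts in F’, 2775, 2864 and 1995 in B’, and 6858, 6347 and 5017 in A’. Both F’ and B’ lay under A’ and overlapped each other. It fell by 0.96 ± 0.15 in F’ vs A’ (FDR of 0.000165) and by 1.25 ± 0.16 in B’ vs A’ (FDR of 0.000155).

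The heat shock protein 83 gene LOC102603244 (chromosome 3) instead had 2755, 3469 and 2540 normalized counts in F’, 1822, 1964 and 1644 in B’, and 1463, 1484 and 1299 in A’, with no overlap between the bulks. It rose by 1.06 ± 0.13 in F’ vs A’ (FDR of 3.41e-05) and by 0.68 ± 0.14 in F’ vs B’ (FDR of 0.00423). The smaller rise of 0.36 ± 0.12 in B’ vs A’ (FDR of 0.035) was lost in the joint fit of all libraries (FDR of 0.0521) and without library 2 or 3 of A’ or library 1 or 2 of B’ (FDR of 0.0607 to 0.163). LOC102581810, a heat shock protein 83-like gene, had 850, 1018 and 781 normalized counts in F’, 380, 398 and 328 in B’, and 501, 609 and 539 in A’. It was 2.38-fold higher in F’ than in B’ (Log2FC of 1.25 ± 0.14), rose by 0.70 ± 0.13 in F’ vs A’ and fell by 0.57 ± 0.13 in B’ vs A’. The plastid gene LOC102578539 (90-5) rose by 0.71 ± 0.13 in F’ vs A’ and by 0.51 ± 0.13 in F’ vs B’, the second call being lost without library 2 of B’ or library 1 of F’ (FDR of 0.0624 and 0.0578). The mitochondrial LOC102591977 (90-6) had a Log2FC of 0.37 ± 0.12 in B’ vs A’ (FDR of 0.0355), lost without library 1 or 3 of A’ or library 1 or 2 of B’ (FDR of 0.0807 to 0.135). The activator of the HSP90 ATPase, LOC102599235, passed no test. Thus 2 of 7 were higher and 3 were lower in B’ vs A’, 3 were higher and 1 was lower in F’ vs A’, and 4 were higher and 0 were lower in F’ vs B’, where DESeq2 and an unadjusted p-value under 0.05 in edgeR also gave 4 and 0. Of all genes tested, 16.4% were higher and 16.5% lower in B’ vs A’, 17.5% and 18.2% in F’ vs A’, and 13.7% and 16.3% in F’ vs B’. The medians of the 7 HSP90 genes were −0.09, 0.15 and 0.51. Without library 3 of A’ or library 1 or 2 of B’, 0 were higher and 3 were lower in B’ vs A’, and 1 was higher without library 1 or 2 of A’. The F’ vs B’ numbers were 3 and 0 without library 2 of B’ or library 1 of F’, and with an FDR under 0.01. The 7 genes summed to 32090 to 33220 normalized counts in F’, 19080 to 21870 in B’ and 29460 to 35560 in A’, and B’ lay under both.

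Of the 4 ClpB genes, the organellar forms rose in F’ vs A’. LOC102592268 (ClpB3, the chloroplast form, chromosome 2) had 5104, 5970 and 4287 normalized counts in F’, 2956, 3060 and 2229 in B’, and 3362, 3537 and 3238 in A’. The F’ libraries lay above all others. It rose by 0.61 ± 0.13 in F’ vs A’ (FDR of 0.00264) and by 0.89 ± 0.16 in F’ vs B’ (FDR of 0.00215). LOC102597445 (ClpB4, mitochondrial) rose by 0.67 ± 0.13 in F’ vs A’ (FDR of 0.00108). Its Log2FC of 0.46 ± 0.15 in F’ vs B’ (FDR of 0.0413) was lost without library 2 or 3 of B’ or any 1 of the F’ libraries (FDR of 0.0528 to 0.134). LOC102577597 (ClpB1, the cytosolic form) had 3302, 4261 and 2917 normalized counts in F’, 2504, 2579 and 1777 in B’, and 2883, 2851 and 2721 in A’, with a Log2FC of 0.60 ± 0.18 in F’ vs B’ (FDR of 0.0274) that was lost without library 1 or 2 of F’ (FDR of 0.0589 and 0.0877). The ClpB-like LOC102585124 ran the other way in F’ vs B’ (−0.56 ± 0.17, FDR of 0.0301), a call lost without library 1 or 2 of B’ or library 2 or 3 of F’ (FDR of 0.0681 to 0.123). Of all genes tested, 32.9% were DEGs in B’ vs A’, 35.6% in F’ vs A’ and 30.0% in F’ vs B’. In B’ vs A’, 0 ClpB genes were called by edgeR and by DESeq2, 1 had an unadjusted p-value under 0.05, and 2 were higher without library 3 of B’ (median Log2FC of −0.05). In F’ vs A’, 2 of the 4 were higher and 0 were lower (median of 0.47), by edgeR and by DESeq2, and 3 were higher at an unadjusted p-value under 0.05. In F’ vs B’, 3 were higher and 1 was lower (median of 0.53), and these numbers were 3 and 0 without library 1 of B’, 2 and 1 without library 3 of B’, 2 and 0 without library 2 of B’ or library 3 of F’, 1 and 1 without library 1 of F’, and 1 and 0 without library 2 of F’.

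**Figure D4:**
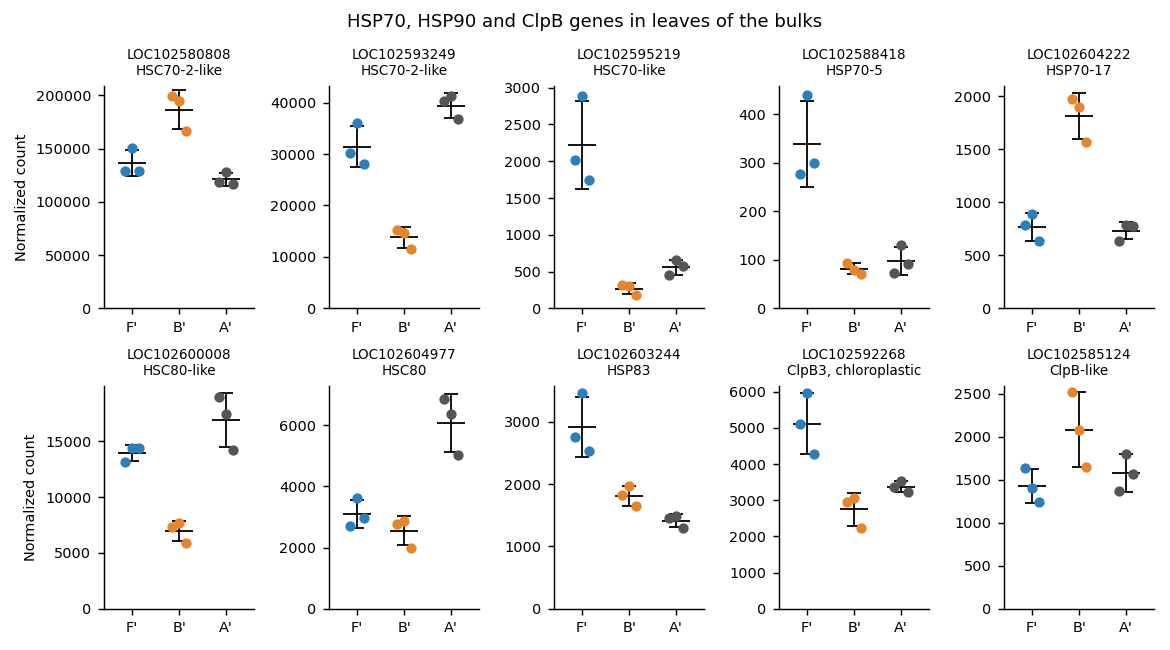
Normalized counts (vertical axes, starting at 0) of 5 HSP70, 3 HSP90 and 2 ClpB genes in the 3 libraries of F’, B’ and A’. Points are libraries and bars are the mean ± SD. LOC102595219 had 1744 to 2891 normalized counts in F’, 184 to 313 in B’ and 452 to 656 in A’, and LOC102604222 was highest in B’ at 1569 to 1978.

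Of the 25 factors, 19 were tested in B’ vs A’, and 8 were higher and 1 was lower (median Log2FC of 0.13), beside 16.4% and 16.5% of all genes. The 1 that was lower is the HSF-binding protein gene LOC102604072. The class A-4 genes, whose Arabidopsis relatives take part in responses to reactive oxygen species, led this group. LOC102593932 (A-4a) had 259, 186 and 301 normalized counts in F’, 376, 469 and 476 in B’, and 197, 225 and 232 in A’. The B’ libraries stood above both other bulks. It was 2.03-fold higher in B’ than in A’ (Log2FC of 1.02 ± 0.14, FDR of 0.000234) and fell by 0.83 ± 0.18 in F’ vs B’ (FDR of 0.00609). LOC102590106 (A-4c-like) had 256, 241 and 317 normalized counts in F’, 453, 565 and 673 in B’, and 322, 271 and 282 in A’. It rose by 0.96 ± 0.16 in B’ vs A’ (FDR of 0.000696) and fell by 1.06 ± 0.17 in F’ vs B’ (FDR of 0.000961). LOC102582897 (A-4a-like) rose in both B’ vs A’ (0.74 ± 0.13) and F’ vs A’ (0.50 ± 0.12). The same held for LOC102581536 (A-5, in tomato a repressor of A-4 factors), with 0.71 ± 0.13 in B’ vs A’ and 0.50 ± 0.14 in F’ vs A’.

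LOC102593941 (HSF24, the class B-1 factor of tomato) had 957 to 1034 normalized counts in F’, 1249 to 1549 in B’ and 820 to 972 in A’. It rose by 0.65 ± 0.13 in B’ vs A’ (FDR of 0.00206) and fell by 0.48 ± 0.12 in F’ vs B’ (FDR of 0.01), a fall that was lost without library 2 of B’ (FDR of 0.063). The factor with the most reads, LOC102597973 (B-2a-like, a repressor in Arabidopsis), had 3294, 4109 and 3545 normalized counts in F’, 3193, 3364 and 3032 in B’, and 2538, 2133 and 2284 in A’. It rose by 0.67 ± 0.13 in F’ vs A’ (FDR of 0.000887) and by 0.47 ± 0.12 in B’ vs A’ (FDR of 0.00893), the second reaching an FDR of 0.05 without library 2 of B’. LOC102593812 (HSF30, the class A-2 factor of tomato that builds up during heat stress) had a Log2FC of 0.44 ± 0.16 in B’ vs A’ (FDR of 0.0485). This call was lost with upper-quartile scaling (FDR of 0.0572), without the filter on low counts (0.0508), and without any 1 of the A’ libraries or library 3 of B’ (0.0939 to 0.129). LOC102594276 (A-8) had 0.34 ± 0.11 in B’ vs A’ (FDR of 0.0358) and −0.32 ± 0.10 in F’ vs B’ (FDR of 0.0388). The first was lost without the filter (FDR of 0.0519) and without library 2 or 3 of A’ or library 1 or 2 of B’ (0.065 to 0.14), and the second without library 1 or 2 of B’ or library 1 or 3 of F’ (0.0753 to 0.143).

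Called factors were mostly lower in F’ vs B’, and less clearly so in F’ vs A’. Of 19 tested in F’ vs A’, 3 were higher and 6 were lower (median of 0.00), the HSF-binding protein gene LOC102604072 being among the lower. These numbers were 3 and 4 with DESeq2, in the joint fit of all libraries, and without any 1 of the A’ libraries or library 3 of F’. In F’ vs B’, 1 was higher and 7 were lower (median of −0.26), with 1 higher and 5 to 9 lower when 1 library was left out. Of all genes tested, 17.5% were higher and 18.2% lower in F’ vs A’, and 13.7% and 16.3% in F’ vs B’. LOC102592818 (C-1, chromosome 12) had 159, 136 and 156 normalized counts in F’, 301, 305 and 238 in B’, and 275, 255 and 245 in A’. The F’ libraries lay under all others, with a Log2FC of −0.77 ± 0.14 in F’ vs A’ (FDR of 0.000623) and of −0.91 ± 0.15 in F’ vs B’ (FDR of 0.00126). The A-7a-like genes, 3 neighbours, lie on contig NW_006239037.1 (bases 1110751 to 1144436), and A-7a is a heat-induced factor in Arabidopsis. LOC102601052 had 136, 138 and 155 normalized counts in F’, 266, 225 and 304 in B’, and 252, 327 and 307 in A’, and fell by 1.03 ± 0.15 in F’ vs A’ (FDR of 9e-05) and by 0.90 ± 0.15 in F’ vs B’ (FDR of 0.00155). LOC107061025 had 5.32 to 8.40 normalized counts in F’, 22.2 to 30.2 in B’ and 11.5 to 21.8 in A’. With at most 9 raw counts per library in F’, it was tested through its counts in B’ or A’ alone. It fell by 1.97 ± 0.37 in F’ vs B’ (FDR of 0.00279). Its Log2FC of −1.41 ± 0.44 in F’ vs A’ (FDR of 0.0227) was lost with DESeq2 (FDR of 0.0559) and without library 1 or 2 of A’ or library 3 of F’ (0.0675 to 0.109). LOC102602063 had −0.52 ± 0.16 in F’ vs A’ (FDR of 0.0244), lost in the joint fit of all libraries (FDR of 0.0931) and without library 2 or 3 of A’ or library 2 of F’ (0.053 to 0.0884).

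LOC102579124 (HSF8, the class A-1a factor that starts the heat response in tomato) had a Log2FC of −0.45 ± 0.16 in F’ vs A’ (FDR of 0.0441). This call was lost with DESeq2, in the joint fit, and without any 1 of the A’ libraries or library 1 or 3 of F’ (FDR of 0.0721 to 0.158). LOC102584069 (A-1) had 237 to 245 normalized counts in F’, 244 to 281 in B’ and 232 to 267 in A’, and LOC102593951 (A-3) had 652 to 863 in F’, 777 to 813 in B’ and 679 to 983 in A’, and neither passed a test. The other HSF8 gene, LOC102591896, had 681 to 979 normalized counts in F’, 645 to 755 in B’ and 664 to 708 in A’ and passed no test. LOC102584067 (A-1b-like) had 249 to 282 normalized counts in F’ against 177 to 188 in B’ and was the only factor that rose in F’ vs B’ (0.52 ± 0.13, FDR of 0.0105). The HSF-binding protein gene LOC102604072, whose product holds factors in check, fell by 0.49 ± 0.13 in F’ vs A’ (FDR of 0.00807). Its −0.41 ± 0.14 in B’ vs A’ (FDR of 0.0479) was lost with upper-quartile scaling and without any 1 of the A’ libraries or library 1 or 2 of B’ (FDR of 0.0618 to 0.165).

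**Figure D5:**
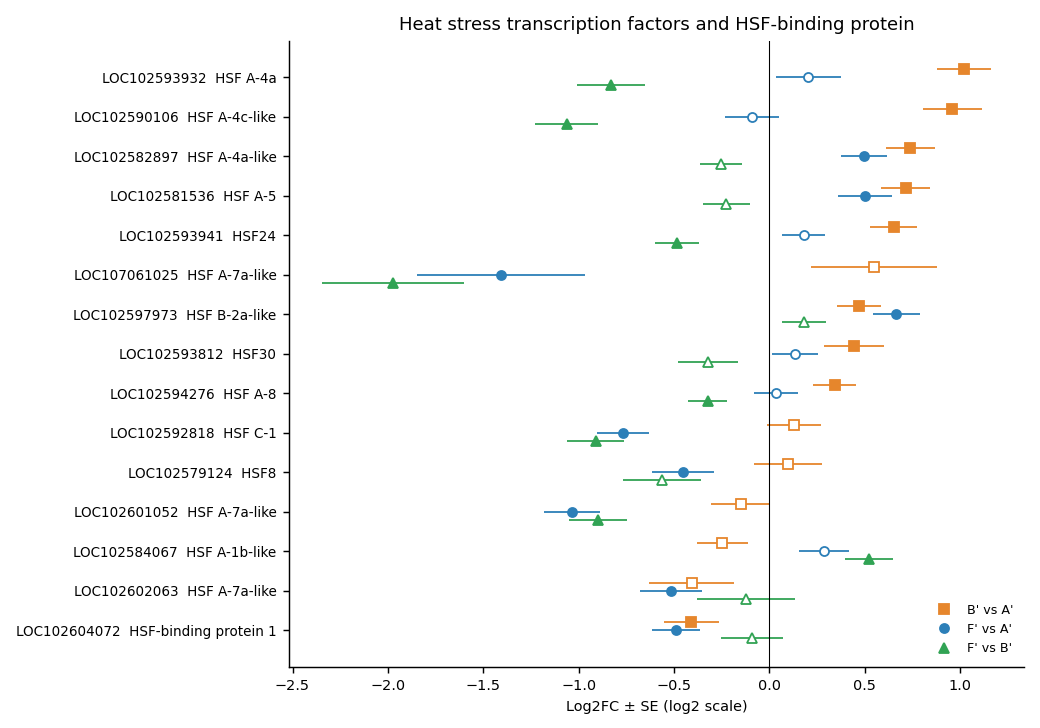
Log2FC ± SE (horizontal axis, log2 scale) of the 15 factor genes called in any comparison, in B’ vs A’ (squares), F’ vs A’ (circles) and F’ vs B’ (triangles), ordered by B’ vs A’. Filled symbols are DEGs with an FDR under 0.05. The A-4a gene LOC102593932 has the largest Log2FC in B’ vs A’, 1.02, and LOC107061025, read rarely and tested through its counts in B’ or A’ alone, has the lowest in F’ vs B’, −1.97.

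Some factors were read too rarely to be tested. The B-3-like gene LOC102594573, named here because its bulks did not overlap, had 3.74, 3.19 and 3.86 normalized counts in F’, 9.25, 11.2 and 11.2 in B’, and 0, 0 and 1.15 in A’, so that B’ was at least 3.09-fold higher than A’ when set against 3 counts per library. The HSF30-like LOC102591828, chosen in the same way, had 6.54, 8.52 and 8.69 normalized counts in F’, 1.85, 4.66 and 0 in B’, and 1.17, 1.09 and 1.15 in A’, so that F’ was at least 2.32-fold higher than A’. In all, 14 heat shock genes were not tested in B’ vs A’, 13 in F’ vs A’ and 12 in F’ vs B’. Of the 86 genes, 3 are listed for B’ vs A’ only (LOC102584371, LOC102593021 and LOC102602460), each with at most 3.51 normalized counts per library.

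Partners of the heat shock proteins were counted from lists made by product name, beside 16.4% of all genes higher and 16.5% lower in B’ vs A’, 17.5% and 18.2% in F’ vs A’, and 13.7% and 16.3% in F’ vs B’. The 9 ER folding genes encode luminal-binding proteins (the HSP70 of the ER), endoplasmin (its HSP90), calnexins and calreticulins. All 9 were tested in B’ vs A’, where 7 were higher and none was lower, with a median Log2FC of 0.78. In F’ vs B’, 6 of 9 were lower and none was higher (median of −1.11), and in F’ vs A’, 1 of 8 was higher and 3 were lower. The luminal-binding protein 5 gene LOC102594892 had 2539, 2605 and 2247 normalized counts in F’, 7004, 7871 and 7137 in B’, and 3150, 3149 and 2896 in A’. It rose by 1.27 ± 0.11 in B’ vs A’ and fell by 1.58 ± 0.11 in F’ vs B’. The endoplasmin gene LOC102601892 rose by 1.24 ± 0.12 in B’ vs A’ and fell by 1.11 ± 0.12 in F’ vs B’. B’ was the highest bulk for both of these genes, as it was for the ER form HSP70-17.

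Among 58 tested DnaJ genes, which encode the HSP40 partners of HSP70, 16 were higher and 5 were lower in B’ vs A’, 14 were higher and 10 were lower in F’ vs A’, and 9 were higher and 9 were lower in F’ vs B’. The last total is near the 30.0% of all genes. Among those of the ER, P58IPK (LOC102592524) and ERDJ3B (LOC102605081) rose in B’ vs A’ (Log2FC of 1.42 ± 0.18 and 1.28 ± 0.13) and fell in F’ vs B’ (by 1.34 ± 0.12 and 1.31 ± 0.13). ERDJ3A (LOC102579268) was not called in B’ vs A’ (−0.296, FDR of 0.14). Nor were the ERDJ2A-like genes LOC102591067 (0.225, FDR of 0.156) and LOC102600763 (0.25, FDR of 0.144). The DnaJ protein homolog gene LOC102606249 had 1357, 1386 and 1421 normalized counts in F’, 341, 368 and 396 in B’, and 429, 384 and 373 in A’, and rose by 1.82 ± 0.12 in F’ vs A’ and by 1.91 ± 0.11 in F’ vs B’. Of 23 tested helpers of HSP70 and HSP90, 4 were higher and 3 were lower in B’ vs A’, 4 were higher and 6 were lower in F’ vs A’, and 2 were higher and 5 were lower in F’ vs B’. An SGT1 gene (LOC102579484, a co-chaperone of HSP90) rose by 1.13 ± 0.13 in B’ vs A’ and fell by 1.38 ± 0.12 in F’ vs B’. The more deeply read SGT1 gene LOC102599444 had 4609 to 5377 normalized counts in A’, against 478 to 549 for LOC102579484. It was not called in B’ vs A’ (Log2FC of −0.118, FDR of 0.458). Chaperonins, which fold proteins in closed rings, had 6 of 20 higher and 0 lower in B’ vs A’, 3 of 21 higher and 0 lower in F’ vs A’ (beside 17.5% of all genes higher), and 1 of 20 higher and 2 lower in F’ vs B’. Genes linked to heat that encode no chaperones (multiprotein-bridging factors, galactinol synthases and ascorbate peroxidases) had 2 of 12 higher and 3 lower in B’ vs A’, 1 of 12 higher and 5 lower in F’ vs A’, and 2 of 12 higher and 2 lower in F’ vs B’. The genes named in these lists were chosen after their values were seen.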

How the data were processed

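Leaf mRNA libraries of bulks F’, B’ and A’ (3 each) were prepared with a directional kit and sequenced on the BGISEQ-500 platform. The raw counts per gene that the authors deposited were used. The submitters’ processing notes name Bowtie2 2.1.0, TopHat2 2.0.9 and DESeq2 without giving their roles, and the counting tool is not given in the sources used here. Contigs carry SolTub_3.0 names, and all 86 genes matched the RefSeq gene table. Columns deposited by the authors with normalized signal values, log2 fold changes, fold ratio values, p-values and a score (the standard error) were not used.

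Members and lists were chosen with earlier results of these data known. Each comparison was fitted on all its genes with edgeR 4.0.16 (filterByExpr, TMM, robust quasi-likelihood test, Benjamini-Hochberg FDR under 0.05) in R 4.3.3. Standard errors came from the Log2FC and the F statistic, and normalized counts used TMM factors over the 22988 genes listed in both comparisons. Libraries of a bulk differed by more than counting noise (lowest chi-square of 6.28 per degree of freedom), and each was fitted as 1 library. This spread cannot show whether the libraries are biological replicates, since technical libraries can also differ by more than counting noise. The coefficient of variation between libraries was 0.146 within F’, 0.169 within B’ and 0.124 within A’. A fold change against a bulk with at most 3 counts per library was set against 3 counts. The script was tested on simulated data.

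Named genes were LOC102584503, the 2 DEGs with the largest Log2FC on either side in each subgroup and comparison with a mean of at least 20 normalized counts, every called factor, and the gene with the most reads in each subgroup. Alternatives were DESeq2 1.42.0, upper-quartile scaling, every gene with at least 1 count, a block for the replicate number, a joint fit of all 9 libraries, an FDR under 0.01, and leaving out each library.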

Additional observations from a re-analysis of the deposited data

How the results depend on the processing

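The number of called heat shock genes was within 1.5 times the reported one under every alternative, at 21 to 36 in B’ vs A’ (31 reported), 31 to 42 in F’ vs A’ (40 reported) and 26 to 41 in F’ vs B’ (39 reported). The lowest number came with an FDR under 0.01 in each comparison, and leaving out 1 library gave 22 to 36, 33 to 40 and 29 to 36. Of the called genes, 20 of 31, 31 of 40 and 27 of 39 stayed called under every alternative other than an FDR under 0.01. No called Log2FC of a named gene changed sign, and 87 of the 858 values under these alternatives lost their call. With an FDR under 0.01, 5 small HSPs were higher and 1 was lower in B’ vs A’, 0 HSP90 genes were higher and 3 were lower in B’ vs A’, 2 factors were higher and 3 were lower in F’ vs A’, and 1 ClpB gene was higher and 0 were lower in F’ vs B’. Correlations of same-numbered libraries ran from −0.252 to 0.338, with the highest, 0.32 and 0.338, for libraries 2 and 3 of F’ and B’. The main fits used no pairing, but 3 libraries per bulk cannot exclude it. With the replicate block, 26, 39 and 41 genes were called in B’ vs A’, F’ vs A’ and F’ vs B’. Over all genes, the block raised the F’ vs B’ calls from 5785 to 7082. The block left 0 HSP90 genes higher in B’ vs A’ (2 reported), and the calls of LOC102603244 (FDR of 0.0837), LOC102591977 (0.0846), LOC102593812 (0.0537), LOC102594276 (0.102) and LOC102604072 (0.055) in B’ vs A’ and of LOC102579124 (0.0723) in F’ vs A’ were lost.

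Among the 41 named genes, Log2FC values without a call changed sign when 1 library was left out in 10 cases. They ranged from −0.65 to 0.002 (LOC102578786), −0.12 to 0.21 (LOC102579124), −0.43 to 0.009 (LOC102588418), −0.063 to 0.16 (LOC102601300), −0.14 to 0.045 (LOC102605425) and −0.10 to 0.34 (LOC102606179) in B’ vs A’. In F’ vs A’ they ranged from −0.033 to 0.10 (LOC102594276) and −0.051 to 0.20 (LOC102604222), and in F’ vs B’ from −0.30 to 0.24 (LOC102602063) and −0.23 to 0.028 (LOC102604072). The cause was not tested. Genes with few reads were limited by depth, and 12 to 14 of the 86 could not be tested.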
